A study of Mus musculus with 18 samples.

Results

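In male mice born to a PWD mother and a B6 father, 1851 recombination hotspots were used almost only on the PWD chromosome and were absent from the hotspot maps of both parental genotypes. They are called hybrid-only hotspots on the PWD chromosome here. They were chosen by 3 measured properties. A hotspot of the infertile F1 map on 1 of the 19 autosomes had to have a B6 share below 0.1, which means that under 0.1 of its informative DMC1 reads came from the B6 chromosome. No hotspot centre of the PWD/PWD or the B6/B6 map was allowed within 1000 bp. Its H3K4me3 bin in the infertile F1 table was not to carry the authors' mark for a peak likely to be independent of PRDM9. The infertile F1 map held 23554 autosomal hotspots, of which 21059 had a B6 share. Of these 4366 lay below 0.1, 1975 of them had no parental centre nearby, and 1851 also passed the H3K4me3 mark. The members thus made up 7.86% of the infertile F1 hotspots and carried 13.3% of their heat. A low B6 share in the infertile F1 and absence from the parental maps are the choice itself and not findings.

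The study mapped meiotic DNA breaks in testis by sequencing of the single-stranded DNA bound by DMC1, and the H3K4me3 mark by ChIP-seq of whole adult testis. The infertile F1 was (PWDxB6)F1 with the Prdm9 genotype PWD/B6, and the reciprocal F1 was (B6xPWD)F1 with B6/PWD, which the H3K4me3 file header calls semi-fertile. The rescue F1 was (PWDxB6)F1 with PWD/Humanized, and the Hum/PWD F1 was (B6xPWD)F1 with Humanized/PWD. The humanized allele carries the DNA-binding part of human PRDM9. A further cross was (B6xCAST)F1 with B6/CAST, called the CAST cross here. The inbred maps were PWD/PWD in the PWD strain, Hum/Hum and B6/Hum in C57BL/6J, and a B6/B6 map re-analysed from a library of other submitters. The males of the DMC1 samples of the series were about 10 weeks old, and no age is given here for the B6/B6 library. Each DMC1 map came from 1 library, so no difference between DMC1 maps could be tested. The 3 F1 H3K4me3 tables held 2 biological replicates and an input each. Table totals were 5302534 and 5284422 ChIP fragments with 1015014 input fragments in the infertile F1, 1312114 and 1243717 with 864380 in the reciprocal F1, and 979748 and 1097033 with 750244 in the rescue F1. Wilson 95% intervals given below cover the counting of hotspots only.

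PRDM9 is the meiotic protein that binds DNA through an array of zinc fingers and places H3K4me3 on nearby nucleosomes, after which SPO11 can cut the DNA and DMC1 coats the resulting single strands. The zinc fingers of different Prdm9 alleles read different sequences, so each allele has its own hotspots. Over generations an allele tends to erode its own binding sites in the strain that carries it, while the same sites can stay intact in another subspecies, which is why a hybrid can use sites that neither parent uses. B6 is mostly of Mus musculus domesticus origin, PWD of Mus musculus musculus origin and CAST of Mus musculus castaneus origin.

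The mm10 sequence of 7 members is shown, of which 5 hold a match to the sequence pattern of the B6/B6 map and 2 do not. The first 6 are among the 10 hottest members, and the member in Cpxm2 was one of few that were also hotspots with the humanized allele. Each line gives 299 bases of the + strand around the centre. The mm10 reference is the sequence of the B6 chromosome, whereas the breaks of these sites lay on the PWD chromosome, whose sequence was not used here. Capitals mark the best match to a weight matrix of 20 positions that was fitted to the 5000 hottest B6/B6 hotspots, with the consensus NNAGATGNTNCTNCCNNNTN or, on the other strand, NANNNGGNAGNANCATCTNN, in which 11 letters are fixed. The sites were near Tacr3 (chr3:134982253-134982551), near Vgll3 (chr16:66196068-66196366), near Gdnf (chr15:7652383-7652681), near Sash1 (chr10:9063756-9064054), in introns of Adgrl3 (chr5:81621162-81621460) and Scaf11 (chr15:96425054-96425352), and in a coding exon of Cpxm2 (chr7:132059673-132059971).
Tacr3: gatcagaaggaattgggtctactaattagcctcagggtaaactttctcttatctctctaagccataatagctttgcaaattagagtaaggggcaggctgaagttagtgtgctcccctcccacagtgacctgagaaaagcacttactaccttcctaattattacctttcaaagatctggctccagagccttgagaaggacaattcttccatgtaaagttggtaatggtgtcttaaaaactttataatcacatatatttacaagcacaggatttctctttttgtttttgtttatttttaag
Vgll3: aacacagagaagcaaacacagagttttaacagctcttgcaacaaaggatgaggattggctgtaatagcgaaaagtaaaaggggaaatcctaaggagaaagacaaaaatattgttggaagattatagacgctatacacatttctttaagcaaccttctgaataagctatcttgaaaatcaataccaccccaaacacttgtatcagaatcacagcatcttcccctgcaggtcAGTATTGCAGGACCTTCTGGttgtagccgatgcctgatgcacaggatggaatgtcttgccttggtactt
Gdnf: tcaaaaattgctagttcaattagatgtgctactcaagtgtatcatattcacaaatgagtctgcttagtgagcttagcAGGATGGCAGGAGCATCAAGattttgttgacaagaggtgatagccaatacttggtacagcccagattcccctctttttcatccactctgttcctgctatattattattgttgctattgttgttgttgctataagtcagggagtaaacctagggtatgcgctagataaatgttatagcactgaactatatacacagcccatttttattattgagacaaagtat
Sash1: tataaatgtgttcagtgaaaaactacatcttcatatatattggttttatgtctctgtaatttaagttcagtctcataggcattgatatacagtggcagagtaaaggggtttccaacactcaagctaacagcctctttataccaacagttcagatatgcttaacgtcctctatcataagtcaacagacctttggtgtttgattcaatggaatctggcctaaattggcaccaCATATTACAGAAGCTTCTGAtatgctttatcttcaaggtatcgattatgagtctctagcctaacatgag
Adgrl3: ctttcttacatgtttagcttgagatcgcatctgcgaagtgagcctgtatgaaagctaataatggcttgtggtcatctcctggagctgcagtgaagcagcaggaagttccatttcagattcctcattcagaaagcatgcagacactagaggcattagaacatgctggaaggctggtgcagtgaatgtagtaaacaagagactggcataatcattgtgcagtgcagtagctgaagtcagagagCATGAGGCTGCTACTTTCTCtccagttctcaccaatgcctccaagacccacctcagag
Scaf11: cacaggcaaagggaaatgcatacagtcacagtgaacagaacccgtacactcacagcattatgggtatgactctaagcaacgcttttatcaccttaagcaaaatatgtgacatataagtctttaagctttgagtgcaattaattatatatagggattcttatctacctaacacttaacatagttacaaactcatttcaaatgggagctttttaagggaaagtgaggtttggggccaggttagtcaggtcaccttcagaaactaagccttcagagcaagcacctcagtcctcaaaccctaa
Cpxm2: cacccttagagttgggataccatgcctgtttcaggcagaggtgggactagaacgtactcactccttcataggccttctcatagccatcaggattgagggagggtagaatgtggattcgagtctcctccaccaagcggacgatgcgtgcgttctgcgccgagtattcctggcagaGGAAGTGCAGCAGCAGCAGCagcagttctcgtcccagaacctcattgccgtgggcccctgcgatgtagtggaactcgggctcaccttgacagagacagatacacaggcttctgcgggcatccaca
The match differed from the fixed letters of the consensus at 2 of 11 positions near Gdnf, at 3 near Vgll3, near Sash1 and in Adgrl3, and at 4 in Cpxm2. The site near Tacr3, the hottest member, and that in Scaf11 had no match above the threshold in the B6 reference and are printed without capitals. Over all members 959 of 1851 held a match within 200 bp of the centre. A match is a description of these letters and not a binding site.

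The members were then looked up in the 6 other DMC1 maps. The reciprocal F1 held nearly all of them, the CAST cross held about as many as it lacked, and both hybrids with the humanized allele held almost none. A centre lay within 1000 bp for 1722 members in the reciprocal F1, 93.0% (91.8 to 94.1%), and for 946 in the CAST cross, 51.1% (48.8 to 53.4%). The rescue F1 held 16, 0.864% (0.533 to 1.40%), and the Hum/PWD F1 held 24, 1.30% (0.873 to 1.92%). The inbred Hum/Hum map held 18, 0.972% (0.616 to 1.53%), and the B6/Hum map 16. Over all infertile F1 hotspots the shares were 72.3% in the reciprocal F1, 25.1% in the CAST cross, 22.0% in the rescue F1 and 32.9% in the Hum/PWD F1. They were 1.95% in the Hum/Hum and 18.3% in the B6/Hum map, so the Hum/Hum share was low for all hotspots too. The rule sets part of the low shares, since it removed every site of the inbred PWD/PWD and B6/B6 maps.

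Classes chosen by the same B6 share or the same absence from parental maps behaved differently. Hybrid-only hotspots on the B6 chromosome, with a B6 share above 0.9, numbered 2198. Of these 50.1% (48.0 to 52.2%) were found in the rescue F1 and 70.0% in the Hum/PWD F1, but 18.1% (16.5 to 19.7%) in the CAST cross. B6-type hotspots on the PWD chromosome, which matched the B6/B6 map only and had a B6 share below 0.1, numbered 1388. Of these 71.4% (69.0 to 73.7%) were found in the CAST cross, 0.288% in the rescue F1 and 0.504% in the Hum/PWD F1. PWD-type hotspots on the PWD chromosome numbered 842, and 34.9% of them were found in the rescue F1, 66.3% in the Hum/PWD F1 and 8.67% in the CAST cross. Among these classes the members stood nearest to the B6-type hotspots of the PWD chromosome in the rescue F1, the Hum/PWD F1 and the CAST cross. Symmetric B6-type hotspots matched the B6/B6 map only and had a B6 share from 0.1 to 0.9. They stood nearer still, at 0.666%, 0.915% and 35.8% in the same order. The B6/Hum map cannot place the members among these classes, because it is an inbred map with a B6 allele. Members and hybrid-only hotspots of the B6 chromosome were chosen for absence from the B6/B6 map, and B6-type hotspots for a match to it. The B6/Hum map held 0.864% of members and 1.18% of hybrid-only hotspots of the B6 chromosome. On the PWD chromosome it held 24.0% of B6-type and 0.356% of PWD-type hotspots.

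**Figure D1:**
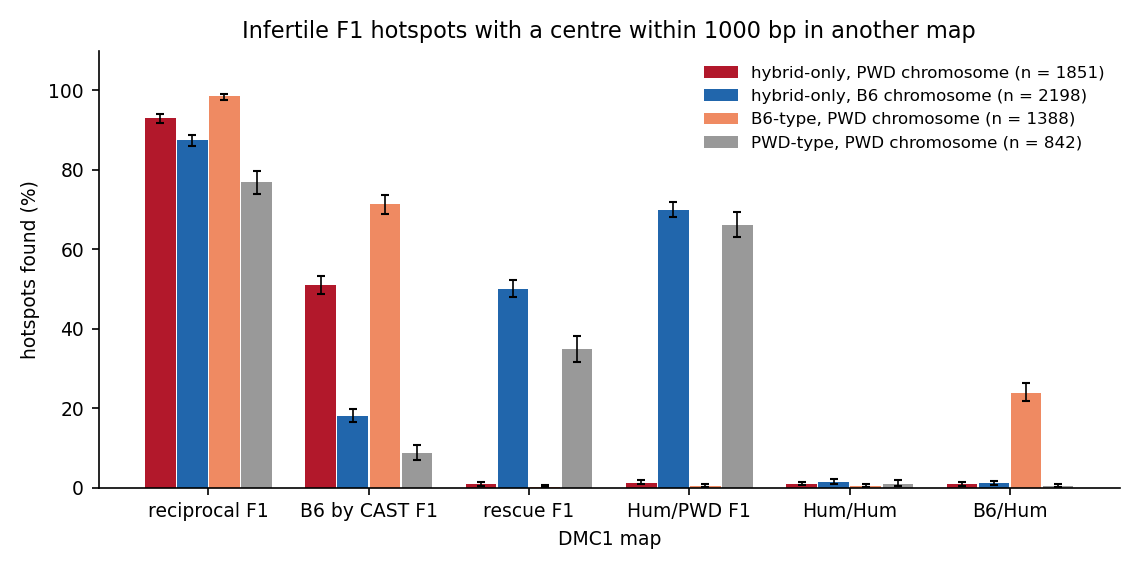
Share of infertile F1 hotspots (percent, y axis) with a centre within 1000 bp in each of 6 other DMC1 maps (x axis), for the members and 3 like classes, with Wilson 95% intervals as bars. The members stand at 93.0% in the reciprocal F1, 51.1% in the CAST cross and at most 1.30% in the 4 maps with the humanized allele.

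The few members found in maps with the humanized allele often had another centre. The median distance between the 2 centres was 39 bp in the reciprocal F1 and 43.5 bp in the CAST cross, but 509.5 bp in the rescue F1 and 507 bp in the Hum/PWD F1. For hybrid-only hotspots on the B6 chromosome found in the rescue F1 it was 53 bp. The overlap between maps was nested. In the reciprocal F1 and the CAST cross together 936 members were found in both, 786 in the reciprocal F1 only, 10 in the CAST cross only and 119 in neither. The rescue F1 or the Hum/PWD F1 held 25 members and both held 15. No other map held 115 members.

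Heat, a hotspot's DMC1 signal relative to its own library, was high among the members. The median was 62.8 in the infertile F1, with the middle 50% from 23.7 to 155.35 and a full range from 4.1 to 702.7. The median of all infertile F1 hotspots was 25.4, that of hybrid-only hotspots on the B6 chromosome 42.35, that of B6-type hotspots on the PWD chromosome 121.65 and that of PWD-type ones 22.7. As heat is relative, a ratio between maps describes a site's weight within each library and not a number of breaks. Members found in both maps had a median ratio of reciprocal to infertile heat of 1.11 (interval of the median 1.09 to 1.12, n = 1722), against 0.962 over all 17028 hotspots found in both. B6-type hotspots on the PWD chromosome had a ratio of 1.10, hybrid-only hotspots on the B6 chromosome 1.01 and PWD-type hotspots on the PWD chromosome 0.851. In the CAST cross the members' median ratio was 0.704 (0.682 to 0.734, n = 946), against 0.741 over all hotspots found there.

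Across the members the order of heat was alike in the infertile F1, the reciprocal F1 and the CAST cross. Spearman's rho was 0.974 with the reciprocal F1 over 1722 members and 0.800 with the CAST cross over 946. In the CAST cross it was 0.752 at B6-type hotspots of the PWD chromosome, 0.229 at hybrid-only hotspots of the B6 chromosome and 0.488 over all hotspots found there. In the rescue F1 it was -0.116 over 16 members and in the Hum/PWD F1 -0.287 over 24. These values describe 1 pair of libraries each, and the points of a pair share both libraries and their depth. Members missing from the reciprocal F1 were cold, with a median infertile heat of 9.7 for the 129 not found and 71.0 for those found. In the CAST cross it was 27.5 for the 905 not found, with a highest value of 561.6, and 117.45 for those found. The members not found in the rescue F1 and the Hum/PWD F1 were nearly all members, with medians of 62.8 and 62.6.

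**Figure D2:**
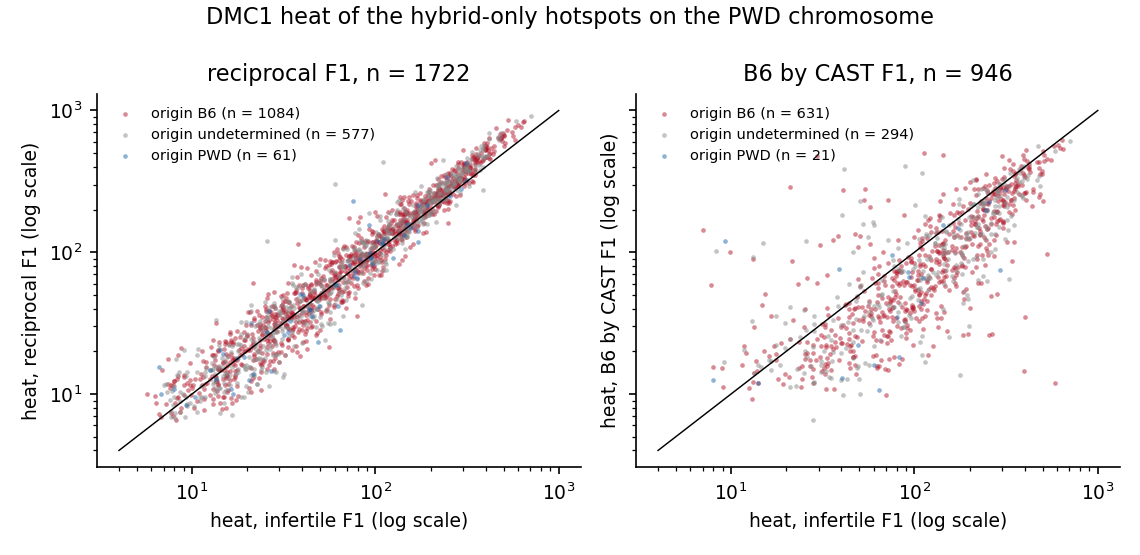
Heat of each member in the infertile F1 (x axis, log scale) against the reciprocal F1 (left, 1722 members) and the CAST cross (right, 946 members), coloured by the allele to which the authors assigned the hotspot, with the line of equal heat. The points follow the line closely on the left (rho 0.974) and lie mostly below it with more scatter on the right (rho 0.800, median ratio 0.704).

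The members were also sorted by heat into 4 groups of 462 or 463. In the coldest group, with heat from 4.1 to 23.7, 73.9% were found in the reciprocal F1 and 13.6% in the CAST cross. In the next, up to 62.8, the shares were 98.9% and 42.8%, and in the next, up to 154.7, they were 99.4% and 68.2%. In the hottest group, from 156.0 to 702.7, all were found in the reciprocal F1 and 79.9% in the CAST cross. Within the same heat ranges B6-type hotspots on the PWD chromosome were found in the CAST cross at 18.9, 54.6, 79.9 and 85.0%, and hybrid-only hotspots on the B6 chromosome at 12.2, 15.6, 18.4 and 31.3%. The members lay between both classes in each of the 4 ranges, but not always beyond the Wilson intervals. In the coldest range the interval was 10.9 to 17.2% for members, 12.9 to 26.7% for the B6-type and 10.1 to 14.7% for the hybrid-only hotspots. In the hottest range those of members (76.0 to 83.3%) and B6-type hotspots (81.8 to 87.7%) overlapped. In the rescue F1 the hybrid-only hotspots of the B6 chromosome went from 3.5% in the coldest range to 100% in the hottest. The members stayed between 0.649% and 1.08% there in all 4 groups.

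Individual hot members show the pattern. Genes are given for place only, since no expression was measured. The hottest member lay 47823 bp from Tacr3 (chr3:134982402), the gene of the neurokinin 3 receptor, and its heat was 702.7 in the infertile F1, 917.6 in the reciprocal F1 and 608.1 in the CAST cross. Its B6 share was 0.005, 0.005 and 0.007 in these maps. The second lay in an intron of Tmc1 (chr19:20796490), a channel gene of inner-ear hair cells, with heat of 648.6, 839.6 and 536.4 in the same order and B6 shares of 0.002, 0.005 and 0.007. The site 329849 bp from Vgll3 (chr16:66196217), a gene for a transcription cofactor, had heat of 635.8, 824.7 and 614.6, the highest value of any member in the CAST cross. Near Gdnf (158314 bp, chr15:7652532), whose growth factor maintains spermatogonial stem cells, heat was 619.8, 765.3 and 545.4. All 4 of these sites were hotter in the reciprocal F1 than in the infertile F1 and less hot in the CAST cross, and none had a centre in a map with the humanized allele.

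The next members by heat were less alike in the CAST cross. The site 177835 bp from the scaffold gene Sash1 (chr10:9063905) had heat of 603.3 in the infertile F1, 789.8 in the reciprocal F1 and 570.6 in the CAST cross, and a weak hotspot of heat 6.3 and B6 share 0.231 lay nearby in the Hum/PWD F1. The site within Scaf11 (intron, chr15:96425203), a splicing factor gene, had 575.7, 766.9 and 562.6. In an intron of Adgrl3 (chr5:81621311), an adhesion receptor gene, heat was 553.7, 708.5 and 448.6, and the B6 share rose from 0.002 in the infertile F1 to 0.086 in the CAST cross. The site 27177 bp from the serotonin receptor gene Htr4 (chr18:62297027) had 561.6 and 659.8 and no centre in the CAST cross. The site 72259 bp from Prr16 (chr18:51492303) had 583.6, 843.9 and 518.2. An intron of Pde4d (chr13:109314983), a cAMP phosphodiesterase gene, was also among the 5 members hottest in the CAST cross, with 474.1, 618.6 and 564.9.

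The hottest members without a centre elsewhere were named after their values were seen. Missing from the reciprocal F1 were an intron of Ptprg (chr14:12164480, heat 140.7), an intron of Bag4 (chr8:25777808, 103.3) and a site 30266 bp from Il6 (chr5:29982848, 71.0). These 3 had low H3K4me3 enrichment in the infertile F1, at 0.493, 0.365 and 0.646 against a member median of 1.25, and B6 shares of at most 0.004. Missing from the CAST cross were the site near Htr4, an intron of Osbpl8 (chr10:111261432, 492.5) and an intron of Ttc39c (chr18:12735442, 454.9). The reciprocal F1 held both introns, with heat of 608.2 and 755.2.

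The B6 share of DMC1 reads was then read in maps that the rule did not use. In the reciprocal F1 the members stayed on the PWD chromosome. Of 1678 members with a value 1639, or 97.7% (96.8 to 98.3%), lay below 0.1, the median was 0.008 and the highest value 0.410. Over all infertile F1 hotspots found in the reciprocal F1 26.7% lay below 0.1. The other classes chosen by a B6 share below 0.1 in the infertile F1 mostly stayed there too. Of B6-type hotspots on the PWD chromosome 94.7% (93.4 to 95.8%) lay below 0.1 in the reciprocal F1, and of PWD-type ones 89.9% (87.2 to 92.0%). In the CAST cross the share compares the B6 with the CAST chromosome. There 673 of 933 members, or 72.1% (69.2 to 74.9%), lay below 0.1, 257 lay from 0.1 to 0.9 and 3 above 0.9, with a median of 0.05. All hotspots found in the CAST cross had 30.9% below 0.1, and hybrid-only hotspots on the B6 chromosome had 1.83% below 0.1 and 45.3% above 0.9. B6-type hotspots on the PWD chromosome had 73.6% (70.8 to 76.3%) below 0.1, an interval that overlaps that of the members. A B6 share below 0.1 in the infertile F1, the reciprocal F1 and the CAST cross together was met by 667 of 921 members with all values. The deposited DMC1 shares come without numbers of informative reads, so their counting error is unknown.

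Members above 0.9 in the CAST cross lay mostly on the B6 chromosome there. Of the 3, one lay in an intron of the axon guidance gene Robo2 (chr16:74310962), with a CAST heat of 223.8 and a B6 share of 0.970, and another lay 70684 bp from Ptch1 (chr13:63644282), with 119.2 and 0.984. The B6 share of these sites in the infertile F1 was 0.056 and 0.048. The authors left the site in Robo2 undetermined and gave that near Ptch1 to PWD.

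In the hybrids with the humanized allele the few members had a mixed B6 share. In the rescue F1 7 of 16 lay below 0.1, with a median of 0.148, and in the Hum/PWD F1 5 of 24, with 4 above 0.9 and a median of 0.183. The authors assigned 13 of the 16 in the rescue F1 to the humanized allele, 1 to PWD and left 2 undetermined. The hottest lay in an intron of Smim11 (chr16:92305011), with heat of 53.8 in the infertile F1, 385.9 in the rescue F1, 277.5 in the Hum/PWD F1, 198.8 in the Hum/Hum map and 153.1 in the B6/Hum map. It was hotter in all 4 maps with the humanized allele than in the infertile F1 and was not in the CAST cross. The coding exon of Cpxm2 (chr7:132059822), a carboxypeptidase-like gene, had heat of 184.9 in the infertile F1, 195.7 in the reciprocal F1, 213.3 in the CAST cross, 131.7 in the rescue F1 and 106.0 in the Hum/PWD F1. Its B6 share was at most 0.019 in these 5 maps, and it had no centre in the inbred Hum/Hum and B6/Hum maps. In an intron of the adhesion gene Lsamp (chr16:40709858) heat went from 47.9 in the infertile F1 to 99.6 in the rescue F1, where the B6 share was 0.397. Within Cntnap2 (intron, chr6:47169512), a neurexin-family gene, heat was 112.6 and 75.1 and the B6 share 0.041 and 0.700 in the same maps. In an intron of the ephrin receptor gene Epha6 (chr16:60572014), which the authors assigned to PWD in the infertile F1, heat was 94.5, 69.2 and, in the Hum/PWD F1, 89.8, and the B6 share was at most 0.054 in these maps.

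The B6 share of H3K4me3 gave a second reading of the chromosome used. With the infertile F1, 1469 members had at least 10 informative reads after the authors' background subtraction. Of these 1302, or 88.6% (86.9 to 90.2%), lay below 0.1, and 798, or 54.3%, were at exactly 0. In the reciprocal F1 it was 935 of 1094, or 85.5% (83.3 to 87.4%), and in the rescue F1 4 of 8. Over all hotspots 19.7% and 26.8% of bins lay below 0.1 in the infertile and the reciprocal F1. In the same order B6-type hotspots on the PWD chromosome had 74.1% and 76.5%, and PWD-type ones 77.5% and 69.4%. Most of the distance to all hotspots was thus shared by these classes, which were also chosen by a low DMC1 B6 share. In the infertile F1 3 members had more than 0.5 of their H3K4me3 on the B6 chromosome, in an exon of the noncoding gene Gm553 (chr1:52523032, 0.544), in an intron of the kinase gene Prkcb (chr7:122468361, 0.568) and in an intron of the ubiquitin protease gene Usp32 (chr11:85060102, 0.660). Their informative reads numbered 11.4, 36.6 and 21.8, while their DMC1 B6 shares were 0.083, 0.039 and 0.026.

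**Figure D3:**
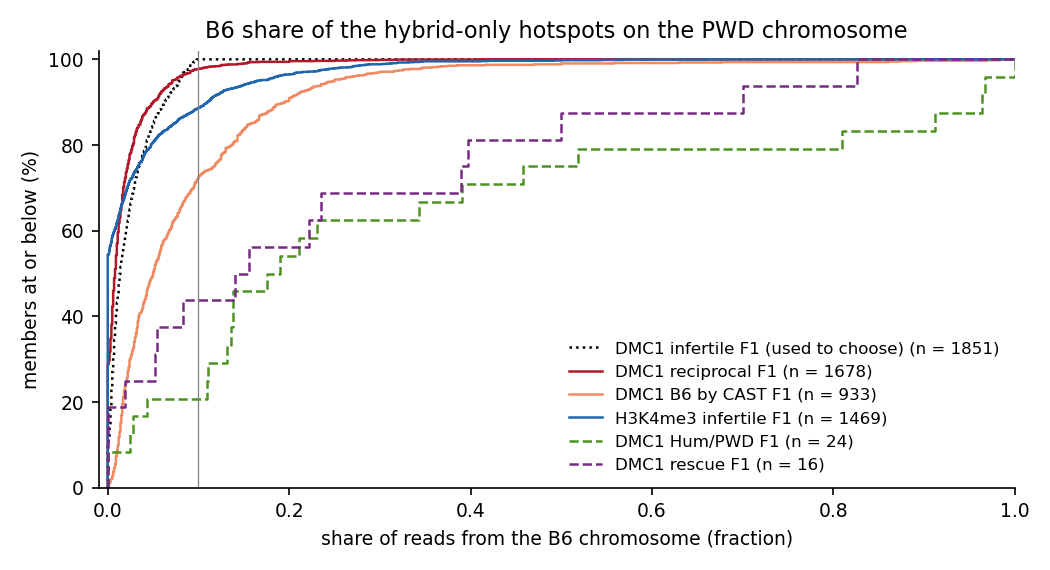
Cumulative share of members (percent, y axis) at or below a given share of reads from the B6 chromosome (x axis, fraction), for DMC1 in 5 hybrid maps and H3K4me3 in the infertile F1, with a grey line at 0.1. At that line 97.7% of members lie to the left in the reciprocal F1, 88.6% for H3K4me3 and 72.1% in the CAST cross, against 7 of 16 in the rescue F1 and 5 of 24 in the Hum/PWD F1.

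The authors' own allele column gave most members to the B6 allele. In the infertile F1 1143 members, or 61.75%, were assigned to B6, 77, or 4.16%, to PWD, and 631, or 34.1%, were undetermined. Of the 2198 hybrid-only hotspots on the B6 chromosome 4.64% were assigned to B6 and 58.8% to PWD. The column was the same in the reciprocal F1 for 1616 of 1722 members, or 93.8%. Members assigned to B6 were found in the reciprocal F1 at 94.8% and in the CAST cross at 55.2%. For undetermined members these shares were 91.4% and 46.6%, and for members assigned to PWD 79.2% and 27.3%. No source used here says how the column was made.

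H3K4me3 was then compared with the DMC1 signal in bins of 1 kb centred on the hotspots. A bin was called marked when its deposited likelihood ratio p-value, adjusted by the Benjamini-Hochberg method over all autosomal bins of its table, lay below 0.05. In the infertile F1 1614 of 1851 members were called, or 87.2% (85.6 to 88.6%), against a background of 83.1% of all bins and 80.3% of the bins without the mark for PRDM9-independent peaks. This mark was part of the rule. In the reciprocal F1 866 of 1722 were called, or 50.3% (47.9 to 52.7%), against 44.1% of all bins and 41.2% of those without the mark. In the rescue F1 13 of 16 were called, or 81.25%, against 87.9% and 86.7%. In the infertile and the reciprocal F1, in this order, B6-type hotspots on the PWD chromosome were called at 96.5% and 70.8%. Hybrid-only hotspots on the B6 chromosome were called at 81.3% and 36.7%, and PWD-type hotspots on the PWD chromosome at 72.4% and 25.3%. The reciprocal table had the lowest share of calls and the rescue table the lowest ChIP totals.

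The median enrichment of members over local background was 1.25 in the infertile F1 (interval of the median 1.16 to 1.36), where the median of all bins was 1.04. In the reciprocal F1 it was 0.545 (0.471 to 0.594), against 0.416, and in the rescue F1 0.566 over 16 members, against 0.955. The 2 replicates were close. The members' bins in the infertile F1 had a median of 36 and 39 ChIP fragments with 25 in the input. In the reciprocal F1 they had 36 and 35 with 30. Summed over all members' bins, ChIP over input was 2.04 and 2.13 in the replicates of the infertile F1 and 1.39 and 1.33 in those of the reciprocal F1. In the infertile F1 the same ratio was 1.54 and 1.65 at hybrid-only hotspots of the B6 chromosome, 2.76 and 2.87 at B6-type and 1.03 and 1.14 at PWD-type hotspots of the PWD chromosome. Within this table both replicates put the members between the B6-type sites and the hybrid-only sites of the B6 chromosome, without overlap of the replicates. The classes also differed in heat. In the members' heat ranges, coldest first, their median enrichment was 0.322, 0.775, 1.83 and 3.57. It was 0.446, 0.993, 2.04 and 3.53 at B6-type sites and 0.259, 0.646, 1.45 and 2.995 at hybrid-only sites of the B6 chromosome. In the hottest range the members were thus not below the B6-type sites.

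**Figure D4:**
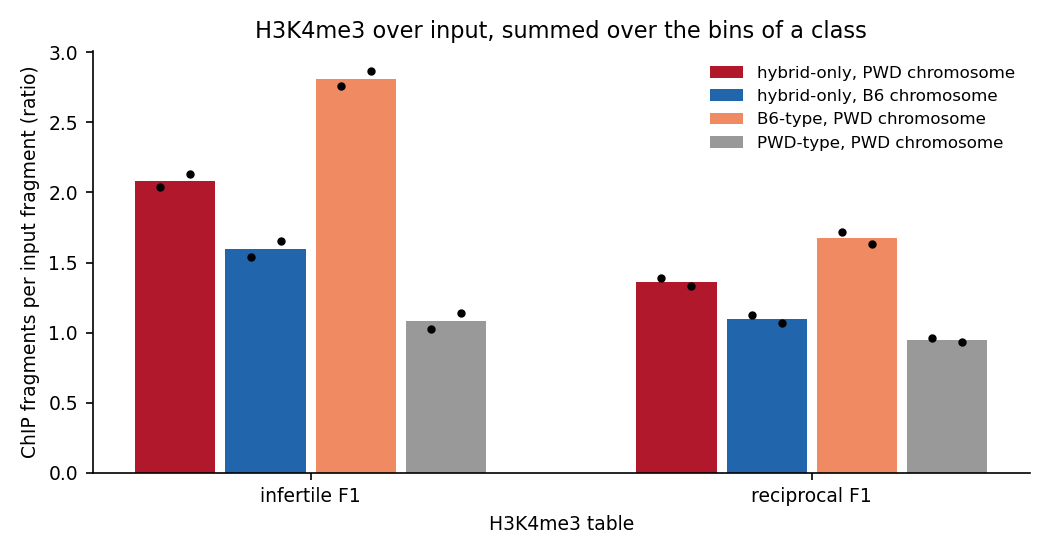
H3K4me3 ChIP fragments per input fragment (ratio, y axis), summed over the bins of each class, in the infertile and the reciprocal F1 table (x axis). Bars are the mean of 2 replicates and points the replicates; the members stand at 2.04 and 2.13 in the infertile F1, and levels are to be compared within a table only, since ChIP and input depth differ between tables.

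Across the members heat and H3K4me3 enrichment went together, with a Spearman's rho of 0.821 over 1851 members in the infertile F1 and 0.733 over 1722 in the reciprocal F1. Over all infertile F1 hotspots, which include bins marked as PRDM9-independent, these values were 0.461 and 0.610. The like classes stood closer to the members. Hybrid-only hotspots of the B6 chromosome had 0.786 and 0.688. On the PWD chromosome B6-type hotspots had 0.767 and 0.698, and PWD-type ones 0.681 and 0.574. Of the coldest group of members 61.8% were called for H3K4me3 in the infertile F1, and 89.2%, 97.8% and 100% of the next 3 groups. The highest enrichment lay elsewhere than the highest heat. The 5 sites named next had 8, 6, 14, 18 and 10 input fragments in the infertile F1, against a member median of 25. How far this ranking rests on low input was not tested. It was 18.5 at a site 348981 bp from Socs6 on chromosome 18, with 150 and 148 ChIP and 8 input fragments and a heat of 71.9. It was 13.9 at a site 8406 bp from the protease gene Ctsc (chr7:88269679, heat 172.8) and 12.2 at a site 45565 bp from the endoderm transcription factor gene Sox17 (chr1:4542919, heat 112.6). In an intron of Uimc1 (chr13:55031935), a gene of the BRCA1-A complex, it was 10.8 with a heat of 233.3, and 80104 bp from the lipoprotein receptor gene Vldlr (chr19:27136380) it was 9.99 with a heat of 305.0. The site near Sox17 had a heat of 257.1 in the reciprocal F1 and 497.6 in the CAST cross, above its infertile value in both maps.

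ChIP fragments in the reciprocal and the infertile F1 were compared by edgeR's quasi-likelihood test over all bins whose centres lay within 100 bp in both tables. Input and local background did not enter this fit. Median enrichment over all bins also differed, at 1.04 in the infertile and 0.416 in the reciprocal F1. A call is thus a difference in scaled ChIP counts and not in enrichment. How far ChIP quality sets the calls was not tested. Only members that were also hotspots of the reciprocal F1 could enter, and 1224 were tested. Of these 78 were higher in the reciprocal F1, or 6.37% (5.14 to 7.88%), against a background of 10.3% of 11303 bins, and 101 were lower, or 8.25% (6.84 to 9.93%), against 10.2%. The members' median log2 fold was -0.02 and that of all bins 0.01. Both shares were below the background. B6-type hotspots on the PWD chromosome had 30 higher and 126 lower bins with a median log2 fold of -0.16. PWD-type hotspots there had 52 higher and 12 lower bins with a median of 0.29. DESeq2 called 1 member higher and 0 lower, with 175 and 32 bins in all, so the number of calls depends on the tool. Leaving out 1 of the 4 libraries left 19 to 52 members higher and 29 to 79 lower. With the libraries scaled to the bins marked as PRDM9-independent, 55 members were higher and 177 lower, with 975 and 1646 over all bins in place of 1163 and 1154.

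Single members show the size of these differences, with adjusted p-values from edgeR's quasi-likelihood test over all bins. Near Tacr3 the infertile F1 had 173 and 164 ChIP fragments and the reciprocal F1 105 and 99, a log2 fold of -0.43 (SE 0.14, edgeR adjusted p = 0.0137) in scaled libraries, while DMC1 heat was higher in the reciprocal F1. The replicates did not overlap before scaling, and the site was lower after it. In Tmc1 the counts were 117 and 145 against 77 and 73 (log2 fold -0.51, edgeR adjusted p = 0.0084), and near Gdnf 81 and 84 against 64 and 57 (-0.16, edgeR adjusted p = 0.55). Near Vgll3 they were 119 and 100 against 71 and 56 (-0.49, edgeR adjusted p = 0.019), and near Sash1 161 and 142 against 86 and 88 (-0.51, edgeR adjusted p = 0.0052). Of the 10 hottest members 9 were tested, and those of Tacr3, Tmc1, Vgll3, Sash1 and Prr16 passed the threshold in the direction of fewer ChIP fragments. The other 4 did not, among them those of Gdnf, Scaf11 (-0.37, edgeR adjusted p = 0.101) and Htr4 (0.05, edgeR adjusted p = 0.841). All 9 were named for their high heat in the infertile F1, the cross they are compared with here, so the directions are not independent of the choice. DESeq2 called none of them.

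In the rescue F1 only 4 members had a bin centred within 100 bp, and 1847 did not. Of these 4, 2 were higher and 2 lower, against a background of 9.07% higher and 2.66% lower of 3154 bins. In Smim11 the counts were 14 and 16 in the infertile F1 and 75 and 73 in the rescue F1 (log2 fold 3.10, SE 0.25, edgeR adjusted p = 9.4e-34). In an intron of the scramblase gene Plscr1 (chr9:92271344) they were 82 and 81 against 8 and 14 (-2.07, SE 0.28, edgeR adjusted p = 7.2e-12). In Cntnap2 they were 48 and 53 against 13 and 13 (-1.14, edgeR adjusted p = 0.003). The replicates of both crosses did not overlap at these 3 sites. DESeq2 called 1 higher and 1 lower. Scaling to the bins marked as PRDM9-independent moved the median of all bins by -0.61 on the log2 scale and turned the calls over all bins from 286 higher and 84 lower to 165 and 2073, with 1 member higher and 2 lower.

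The members' places in the genome were those of distal hotspots. By GENCODE M21 46.5% lay in introns of protein-coding genes and 43.4% between genes, 38 in coding exons and 31 in UTRs. Within 1000 bp of a protein-coding transcription start lay 27 members, 1.46% (1.00 to 2.11%), against 10.3% of all infertile F1 hotspots, and the mark used in the rule removes many promoters. Hybrid-only hotspots on the B6 chromosome, also without the mark, had 1.50%. On the PWD chromosome B6-type sites had 1.51% and PWD-type sites 0.475% (0.185 to 1.22%). The median distance to the nearest B6/B6 centre was 40988 bp and to the nearest PWD/PWD centre 34068 bp. Only 80 members, or 4.32%, lay between 1000 and 2000 bp from a parental centre. Their GC content had a median of 43.5%, against 44.3% over all hotspots. A gene body held a member in 891 cases, and Fgfr2, a fibroblast growth factor receptor gene, held 5.

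Members occurred on all 19 autosomes. Their share of the hotspots with a B6 share ran from 6.66% (5.06 to 8.72%) on chromosome 14, with 48 members, to 11.1% (9.29 to 13.3%) on chromosome 13, with 105. Most lay on chromosome 2, with 146. The share found in the CAST cross ran from 45.1% on chromosome 6 to 61.9% on chromosome 13. The median distance to the nearest other member was 319039 bp, and 109 had another within 10000 bp.

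Of 43 listed genes of meiotic recombination 39 were autosomal in the annotation and 19 held a hotspot of the infertile F1. Members made up 7.86% of all infertile F1 hotspots, and 1 of the 19 genes held a member. This count is too small to say anything about the members as a whole. Mei4, whose protein is needed for break formation, was the gene that held a member. This site lay in an intron (chr9:81993684), with a heat of 132.7 that became 144.3 in the reciprocal F1, a B6 share of 0.003 and no centre in the CAST cross. Its H3K4me3 counts were 84 and 85 in the infertile F1 against 51 and 42 in the reciprocal F1 (log2 fold -0.57, edgeR adjusted p = 0.0179). DESeq2 called 0 members lower and so did not call this site.

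Sites on either side of the limit of 0.1 were looked at once. The members nearest to it had B6 shares of 0.098 or 0.099 and lay at Gipc2 (heat 99.9), Cited2, B3galnt2, Atp6ap1l and Cacna2d3. Just outside, at 0.1, were sites at Gm597 (heat 15.7), Macrod2 (4.3), Ptprt (10.3), Tal1 (5.9) and Myo1h (7.8).

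Last, the mm10 sequence was searched for letters that mark the parental maps. The 9-mer most enriched at B6/B6 centres was GCAGCAGCA, on either strand, in 3.39% of centres of 200 bp and 0.436% of flanks. It lay within 250 bp of the centre of 110 members, 5.94% (4.95 to 7.11%), of 6.63% of B6-type hotspots on the PWD chromosome, of 1.73% of hybrid-only hotspots on the B6 chromosome and of 3.65% of all infertile F1 hotspots. The 9-mer of the PWD/PWD map was AGTGACTTG, in 1.02% of centres and 0.246% of flanks. It lay near 14 members, 0.756% (0.451 to 1.27%), near 2.87% of hybrid-only hotspots on the B6 chromosome and near 1.40% of all. The members thus held the B6/B6 letters more often and the PWD/PWD letters less often than the hotspots as a whole.

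Weight matrices gave larger shares. The threshold was set so that 10% of flanks of the same length held a match on either strand. A match to the B6/B6 matrix lay within 200 bp of the centre of 959 members, 51.8% (49.5 to 54.1%), and in 9.81% of their own flanks. It was 77.0% at B6-type hotspots on the PWD chromosome, 74.6% at symmetric B6-type hotspots, 12.3% at hybrid-only hotspots on the B6 chromosome, 12.1% at PWD-type hotspots on the PWD chromosome and 33.8% over all infertile F1 hotspots. The members' share in the B6 reference was thus above that of all hotspots and below that of B6-type sites. By heat it was 47.9, 52.1, 54.5 and 52.7% from the coldest to the hottest group. Members assigned to B6 by the authors had 60.4%, undetermined ones 42.2% and those assigned to PWD 3.90%. Members found in the CAST cross had 54.8% and those not found 48.7%, whereas the B6/B6 9-mer lay near 5.29% and 6.63% of them.

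The PWD/PWD matrix, with the consensus AAGNCCAAGNCACNNAANNC and 14 fixed letters, was matched by 153 members, 8.27% (7.10 to 9.61%), against 9.45% of their flanks, which lies inside the interval. It was matched by 34.7% of hybrid-only hotspots on the B6 chromosome, 23.3% of PWD-type and 9.44% of B6-type hotspots on the PWD chromosome and 21.6% of all. The PWD/PWD 9-mer gave another order, with 0.831% of PWD-type hotspots on the PWD chromosome, below the 1.40% of all, and 0.432% of B6-type ones, below the 0.756% of the members. Fitted to the PWD/PWD map it matched only 34.5% of the hotspots it was made from, against 78.2% for the B6/B6 matrix. Of the members 81 matched both matrices, 878 the B6/B6 one only, 72 the PWD/PWD one only and 820 neither. Of the 959 B6/B6 matches 824, or 85.9%, lay within 150 bp of the centre. Sequence in the B6 reference cannot show what the PWD chromosome holds at these sites.

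**Figure D5:**
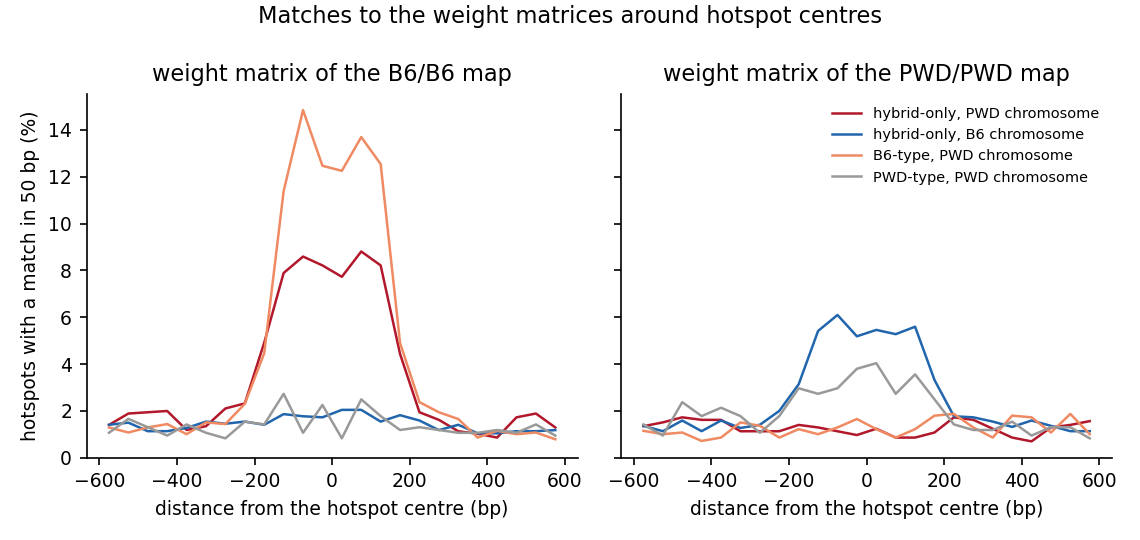
Share of hotspots (percent, y axis) with a match to the B6/B6 (left) or PWD/PWD (right) weight matrix in bins of 50 bp by distance from the hotspot centre (bp, x axis), for the members and 3 like classes. The members peak on the left below the B6-type hotspots of the PWD chromosome, and show no peak on the right, where hybrid-only hotspots of the B6 chromosome are highest.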

How the data were processed

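The starting point was the deposited hotspot lists and bin tables. BWA aligned the reads to mm10, and SAMtools and bedtools served the H3K4me3 tables, per the submitters' processing notes. No source used here names the hotspot caller or defines heat. DMC1 heat is a signal on the authors' relative scale, and the B6 share is a fraction deposited by the authors. The H3K4me3 tables hold counts of ChIP or input fragments overlapping bins of 1000 bp, per the file headers. Enrichment over local background is a score fitted by maximum likelihood, at least 0, and its p-value tests that score against 0 by likelihood ratio, per the file headers.

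The members, classes and lists were chosen with earlier results of these data known. Hotspots were matched within 1000 bp and H3K4me3 bins within 100 bp. ChIP counts, without input, were tested with edgeR 4.0.16 in R 4.3.3 (TMM scaling, quasi-likelihood, Benjamini-Hochberg over all bins), and with DESeq2 1.42.0 as an alternative. The summed ratios left out bins with input above 10 times the table's median. Weight matrices of width 20 were fitted by expectation maximisation to the 5000 hottest hotspots of each parental map, after the data were seen. The PWD/PWD matrix depended on its starting word, since the same word on the other strand gave no enriched motif. Other software was Python 3.11.15, SciPy 1.17.1 and pysam 0.24.0, with the mm10 RefSeq sequence and GENCODE M21. The matching, the matrices and the count tests were tested on simulated data.

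Named sites are the 10 hottest members, the 5 with the highest H3K4me3 enrichment, the 5 hottest in the CAST cross and in the rescue F1, the 5 on either side of the B6 share limit and members in listed meiotic genes. The B6/B6 and Hum/Hum H3K4me3 tables, the lists on mm9 and the PWD genomic DNA were not used here. Some sites that meet these rules are not reported here.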

Additional observations from a re-analysis of the deposited data

How the results depend on the processing

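In all, 33 results were recomputed under 162 alternatives, of which 92 stayed close and 70 moved. With a match limit of 2000 bp the share of members found was 94.2% in the reciprocal F1, 2.27% in the rescue F1, 3.35% in the Hum/PWD F1, 2.65% in the Hum/Hum and 2.70% in the B6/Hum map. With 500 bp it was 0.378% in the rescue F1, 0.648% in the Hum/PWD F1 and 0.540% in the Hum/Hum map. In the hotter 0.5 of members 99.7% were found in the reciprocal F1 and 74.1% in the CAST cross, the median B6 share was 0.0065 and 0.034 there, the relative heat ratio was 1.19 in place of 1.15, and the median enrichment was 2.54 in the infertile and 1.08 in the reciprocal F1. With a B6 share limit of 0.05, 96.3% were found in the reciprocal F1 and 56.2% in the CAST cross, with a median heat of 81.9 and enrichments of 1.53 and 0.641, and with 0.2 the median heat was 50.6. An unadjusted deposited p below 0.001 called 77.4% and 39.3% of members in the infertile and reciprocal F1, and an adjusted p below 0.01 called 83.3% and 43.6%.

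In the comparison of the reciprocal with the infertile F1, leaving out 1 replicate gave 19 to 52 members higher and 29 to 79 lower, DESeq2 gave 1 and 0, bins matched within 250 bp gave 172 lower, and scaling to PRDM9-independent bins gave 177 lower. The counts were 19 and 29 without reciprocal F1 replicate 1, 22 and 34 without its replicate 2, 32 and 49 without infertile F1 replicate 1 and 52 and 79 without its replicate 2. In the comparison with the rescue F1, leaving out 1 replicate gave 1 to 2 members higher and 1 to 2 lower, with 1 higher without replicate 1 of either cross and 1 lower without rescue F1 replicate 2. DESeq2 gave 1 in each direction. There was 1 higher without a filter on low counts, with bins matched within 250 bp and with scaling to PRDM9-independent bins, which moved the median of all bins by -0.61 on the log2 scale. Over all bins the reciprocal comparison gave 1163 higher and 1154 lower, against 175 and 32 with DESeq2, 518 to 907 and 406 to 891 without 1 replicate and 1667 and 1755 within 250 bp. The rescue comparison gave 286 and 84 over all bins, against 184 and 16 with DESeq2, 225 to 236 and 33 to 52 without 1 replicate, 436 and 137 within 250 bp and 165 and 2073 with that scaling, which turned the balance of calls. No paired analysis was possible because the replicate numbers in the table headers only name columns and pair no animals across crosses.

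Within 500 bp and 2000 bp of a transcription start lay 0.432% and 2.92% of members. The B6/B6 9-mer lay within 100 bp in 2.97%, and the PWD/PWD 9-mer within 100 bp in 0.270% and within 500 bp in 1.67%. The weight matrices, added after the data were seen, gave 51.8% and 8.27%. Each DMC1 map is 1 library, and the depth behind heat and the DMC1 B6 share is unknown.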

Other observations

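The median of heat per unit of H3K4me3 enrichment at called members was 52.6 in the infertile F1 (interval of the median 50.6 to 54.5, n = 1614) and 141 in the reciprocal F1 (132 to 150, n = 866). Each table has its own scale of enrichment. Over all called bins of infertile F1 hotspots the values were 33.3 and 81.6. Besides Fgfr2, 5 genes held 4 or more members, namely Gm20388 with 6 and Celf2, Ctnna2, Fhit and Nrxn3 with 4 each.

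The 3 members with the smallest adjusted p-values between the reciprocal and the infertile F1 were named after their values were seen. At a site 24926 bp from Dym (chr18:75311890) the ChIP counts were 39 and 38 in the infertile F1 and 83 and 103 in the reciprocal F1 (log2 fold 1.56, edgeR adjusted p = 1.5e-14), while heat went from 15.3 to 10.7. At a site 139075 bp from Hddc2 (chr10:31174308) they were 122 and 134 against 55 and 60 (-0.86, edgeR adjusted p = 6.2e-06), while heat went from 302.4 to 389.7. At a site 539901 bp from the adhesion gene Ncam2 (chr16:80660796) they were 6 and 5 against 20 and 24 (2.26, edgeR adjusted p = 9e-06), and heat went from 13.5 to 33.4. The replicates of both crosses did not overlap at any of these 3 sites. Input, which was not part of the fit, was 38 fragments in the infertile and 56 in the reciprocal F1 near Dym. It was 27 and 29 near Hddc2 and 20 and 15 near Ncam2. With DESeq2 1 member was called higher and 0 lower. The site near Hddc2 was thus not called by it, and at most 1 of those near Dym and Ncam2 was.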
